A study of Homo sapiens with 24 samples.

Results

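The genes described here are 9 well-known transcriptional targets of p53, namely CDKN1A, MDM2, GDF15, TP53I3, SESN1, FDXR, BBC3, ZMAT3 and RRM2B, chosen by name from 60236 genes in the expression table. Each of the 9 has 1 entry in the table, and all 9 passed the filter on low counts in every comparison. They were followed in 24 RNA-seq libraries from HEK293T, a human embryonic kidney line that carries the SV40 large T antigen, and A549, a human lung adenocarcinoma line. Each line received 1 of 4 plasmids with a cationic lipid reagent (Lipofectamine) and was collected 48 h later, with 3 replicates for each of the 8 groups. The scramble plasmid and the snaR-A plasmid both use a U6 promoter, which RNA polymerase III transcribes, and snaR-A is a small noncoding RNA of that polymerase. The eGFP plasmid, coding for green fluorescent protein, and the plasmid for SF3B2, a subunit of the U2 snRNP splicing factor SF3b, are both pcDNA3.1+/C-(K)DYK expression plasmids. Scramble is thus the control of snaR-A and eGFP the control of SF3B2. Where eGFP or SF3B2 is set against scramble, the backbone, the promoter and the insert change together and their parts cannot be told apart. HEK293T was grown in DMEM and A549 in F-12K, both with serum, so line and medium cannot be told apart either. Every group was transfected, and no untransfected cells are part of these comparisons.

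The p53 protein is a transcription factor that is held at a low level by MDM2, the ubiquitin ligase that marks it for destruction. When DNA damage or another stress loosens that control, p53 binds DNA as a tetramer and raises genes that stop the cell cycle, repair DNA, change metabolism or start apoptosis. MDM2 is itself one of those genes, which closes a negative feedback loop. A549 cells have lost CDKN2A, and in HEK293T cells large T antigen binds p53, which is background knowledge of these lines and not a result of these libraries.

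The p53 response element is a pair of adjoining decamers, each with a core of 4 bases, and a script searched 2500 bases on each side of the start of each gene's canonical transcript on both strands for the full site, with no spacer and at most 2 mismatches to the consensus over 20 bases. A match was found for 7 of the 9 genes and for 2351 of 20044 protein-coding genes, which is 11.7%. The matches for 6 genes are shown as stretches that resemble this consensus, and whether p53 uses them was not tested. They are written 5′ to 3′ on the strand of the gene, from GRCh38 (hg38), with the 4 core bases of each decamer in capitals.
CDKN1A, 2265 bases upstream, chr6:36676449-36676468, plus strand: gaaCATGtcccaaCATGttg
CDKN1A, 1383 bases upstream, chr6:36677331-36677350, plus strand: gaaGAAGactgggCATGtct
MDM2, 746 bases downstream, in an intron, chr12:68808923-68808942, plus strand: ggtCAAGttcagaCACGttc
GDF15, 850 bases upstream, chr19:18385308-18385327, plus strand: catCTTGcccagaCTTGtct
TP53I3, 1966 bases upstream, chr2:24086781-24086800, minus strand: ataCATCctcagaCATGttt
BBC3, 1388 bases upstream, chr19:47232568-47232587, minus strand: gggTCTGcccaggCATGtcc
ZMAT3, 1602 bases downstream, in an intron, chr3:179070188-179070207, minus strand: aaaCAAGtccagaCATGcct
The ZMAT3 match has 0 mismatches and the others printed have 2. RRM2B has a match with 1 mismatch in an intron 2102 bases downstream of its start. For SESN1 and FDXR no match lies in this window, which says only that these letters are not there. A match is a description of the letters, and no library here measured binding of p53.

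Library totals ran from 195186194 to 260878268 estimated counts, so that 3 counts, taken as the detection floor, correspond to 0.0115 to 0.0154 CPM (counts scaled to a common library size). Levels below are in CPM corrected for library composition, and every value per library is an estimate of reads for the whole gene. The 3 libraries of a group are biological replicates by the study's methods, and the p-values measure the spread between them. Of 10 A549 marker genes, 9 could be tested and all 9 were higher in A549. Their summed level was 19450 to 21610 CPM in A549 and 18.45 to 40.86 CPM in 11 of the 12 HEK293T libraries. HEK293T eGFP replicate 3 had 750.8 CPM of these markers, and all 9 detected markers stood higher in it than in replicates 1 and 2, among them ALDH1A1 at 422.5 CPM against 3.38 and 3.12. Of 10 HEK293T markers, 9 were tested, with 6 higher in HEK293T and IGF2BP1, SALL4 and MAP2 higher in A549, so that list describes the label only in part. SF3B2 itself was at 24050 to 48890 CPM in the 6 libraries given its plasmid and at 293.2 to 371.5 CPM in 17 others. The exception was the library labelled A549 scramble replicate 3, at 8773 CPM. Replicate 3 of A549 snaR-A is described as the other line in some of its label fields, and its profile over 25923 genes correlated with every other A549 library at a Spearman rho of 0.984 or more and with HEK293T libraries at 0.88 or less. For the 9 genes, the counts of calls and the values that moved most with HEK293T eGFP replicate 3 or A549 scramble replicate 3 are also given without that library.

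**Figure D1:**
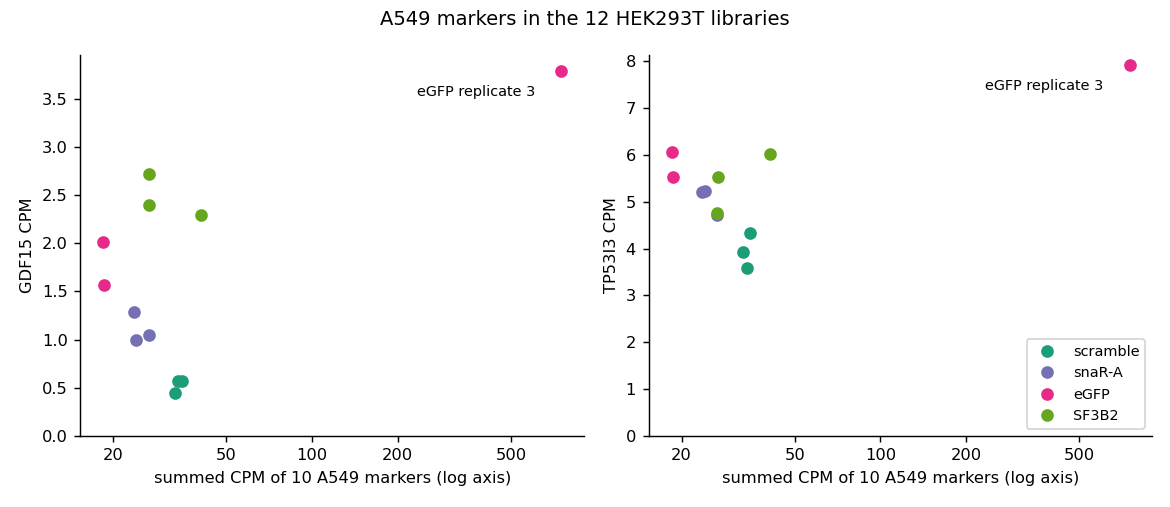
Level of GDF15 (left) and TP53I3 (right) in CPM against the summed CPM of 10 A549 marker genes on a log axis, with 1 point for each of the 12 HEK293T libraries, coloured by plasmid. The eGFP replicate 3 library stands apart at 750.8 CPM of the markers and has the highest level of both genes, while the other 11 libraries lie between 18.45 and 40.86 CPM of the markers.

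As a group, the p53 targets were lower in HEK293T than in A549. Over all 24 libraries 7 of the 9 genes were lower in HEK293T and 2 were higher at an adjusted p under 0.05 (edgeR quasi-likelihood test, Benjamini-Hochberg over 25923 genes), and 6 and 1 of these also passed a change of 1 on the log2 scale. Calls are common between 2 different cell lines: of all genes tested 42.8% were lower and 43% higher, and with the limit on size 22.8% were lower and 24.6% higher. The median log2 fold change was -1.3 over the 9 genes and 0.00572 over all genes. Scaling by library totals alone moved the median of all genes up by 0.465 and the split of all genes to 29.4% lower and 58% higher, while the 9 genes kept their count of 7 lower and 2 higher. The direction held, but the sizes depend on the scaling, since a shift of 0.465 narrows the gaps of the lower genes. The counts past a log2 change of 1 and the median of -1.3 are for the main scaling alone. Without the 2 libraries that stand apart the counts were again 7 lower and 2 higher, with a median of -1.31. Genes of other p53 roles and the levels of each member are taken in turn below, and fewer cells using a gene and less RNA per cell cannot be told apart in such bulk libraries.

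CDKN1A (ENSG00000124762, chr6:36676460-36687337, plus strand) encodes p21, the inhibitor of cyclin-dependent kinases through which p53 stops the cell cycle. In A549 the 12 libraries had a lowest level of 109.5, a median of 131.2 and a highest level of 152.5 CPM. In HEK293T they had a lowest level of 24.7, a median of 32.3 and a highest level of 42.1 CPM. The 2 lines did not overlap, and the log2 fold change was -2.02 (SE 0.0542, adjusted p = 3.43e-18, edgeR).

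MDM2 (ENSG00000135679, chr12:68808177-68845544, plus strand), the negative regulator of p53 named above, was the highest of the 9 genes in both lines per library and per kilobase. Its levels were 378.1 to 495 CPM in A549, with a median of 444.9, and 119.7 to 266.7 CPM in HEK293T, with a median of 184.3. Again no HEK293T library reached the lowest A549 library, with a log2 fold change of -1.30 (SE 0.031, adjusted p = 5.09e-19, edgeR). Of the 31-base words in its transcripts 9.12% also occur in other genes, so a part of its reads could have been assigned to another gene. CLCC1 is the single gene that shares the largest number of them. For the other 8 genes that share is 0 to 2.17%.

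GDF15 (ENSG00000130513, chr19:18374731-18389176, plus strand), a secreted stress cytokine of the TGF-beta family, had the widest gap between the lines. A549 libraries had 66.49 to 86.09 CPM with a median of 75.6, and HEK293T libraries 0.4432 to 3.793 CPM with a median of 1.43. The log2 fold change was -5.80 (SE 0.115, adjusted p = 2.54e-20, edgeR), and -5.91 without HEK293T eGFP replicate 3, the library with the highest HEK293T level. Even the lowest HEK293T libraries lay well above the floor, since those given scramble had 108 to 166 counts.

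TP53I3 (ENSG00000115129, chr2:24077433-24085861, minus strand), a quinone oxidoreductase-like protein also known as PIG3, was second in that order. It stood at 81.77 to 107.2 CPM in A549, median 99.4, and at 3.583 to 7.926 CPM in HEK293T, median 5.21. The lines did not overlap, and the log2 fold change was -4.24 (SE 0.0575, adjusted p = 8.03e-23, edgeR) or -4.28 without HEK293T eGFP replicate 3.

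FDXR (ENSG00000161513, chr17:74862497-74873031, minus strand), the mitochondrial ferredoxin reductase, and RRM2B (ENSG00000048392, chr8:102204502-102238961, minus strand), the p53-inducible small subunit of ribonucleotide reductase that supplies deoxynucleotides for DNA repair, had smaller gaps. FDXR ranged from 27.09 to 41.55 CPM in A549 and from 9.438 to 16.99 CPM in HEK293T, a log2 fold change of -1.41 (SE 0.049, adjusted p = 2.61e-16, edgeR). RRM2B ranged from 113.9 to 140.8 CPM in A549 and from 49.47 to 71.61 CPM in HEK293T, a log2 fold change of -1.08 (SE 0.0339, adjusted p = 4.62e-17, edgeR). Neither gene overlapped between the lines.

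BBC3 (ENSG00000105327, chr19:47220822-47232766, minus strand) encodes PUMA, a BH3-only protein that starts apoptosis. Its A549 libraries had 8.807 to 15.91 CPM, median 14.6, and its HEK293T libraries 5.972 to 9.184 CPM, median 7.42. Here the lowest A549 library lay under the highest HEK293T library, and the log2 fold change of -0.81 (SE 0.0847, adjusted p = 2.07e-08, edgeR) was the smallest of the 7 genes that were lower.

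SESN1 (ENSG00000080546, chr6:108984309-109094846, minus strand), a sestrin that restrains mTORC1 signalling under stress, went the other way. It had 38.77 to 49.99 CPM in HEK293T and 18.11 to 23.85 CPM in A549, with no overlap and a log2 fold change of 1.14 (SE 0.0253, adjusted p = 1.44e-19, edgeR). ZMAT3 (ENSG00000172667, chr3:178960121-179072215, minus strand), an RNA-binding zinc finger protein, differed little: 46.8 to 74.97 CPM in HEK293T and 42.89 to 59.52 CPM in A549. Its medians were 55.5 and 55.4 CPM and the lines overlapped in part, with 5 of 12 HEK293T libraries above every A549 library and 3 of 12 A549 libraries under every HEK293T library. The log2 fold change was 0.11 (SE 0.0281, adjusted p = 0.00168, edgeR). That value depended on the plasmid: it was 0.46 (adjusted p = 0.000157) with eGFP and 0.28 (adjusted p = 0.00663) with SF3B2, but -0.04 (adjusted p = 0.527) with scramble and -0.17 (adjusted p = 0.00984) with snaR-A.

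**Figure D2:**
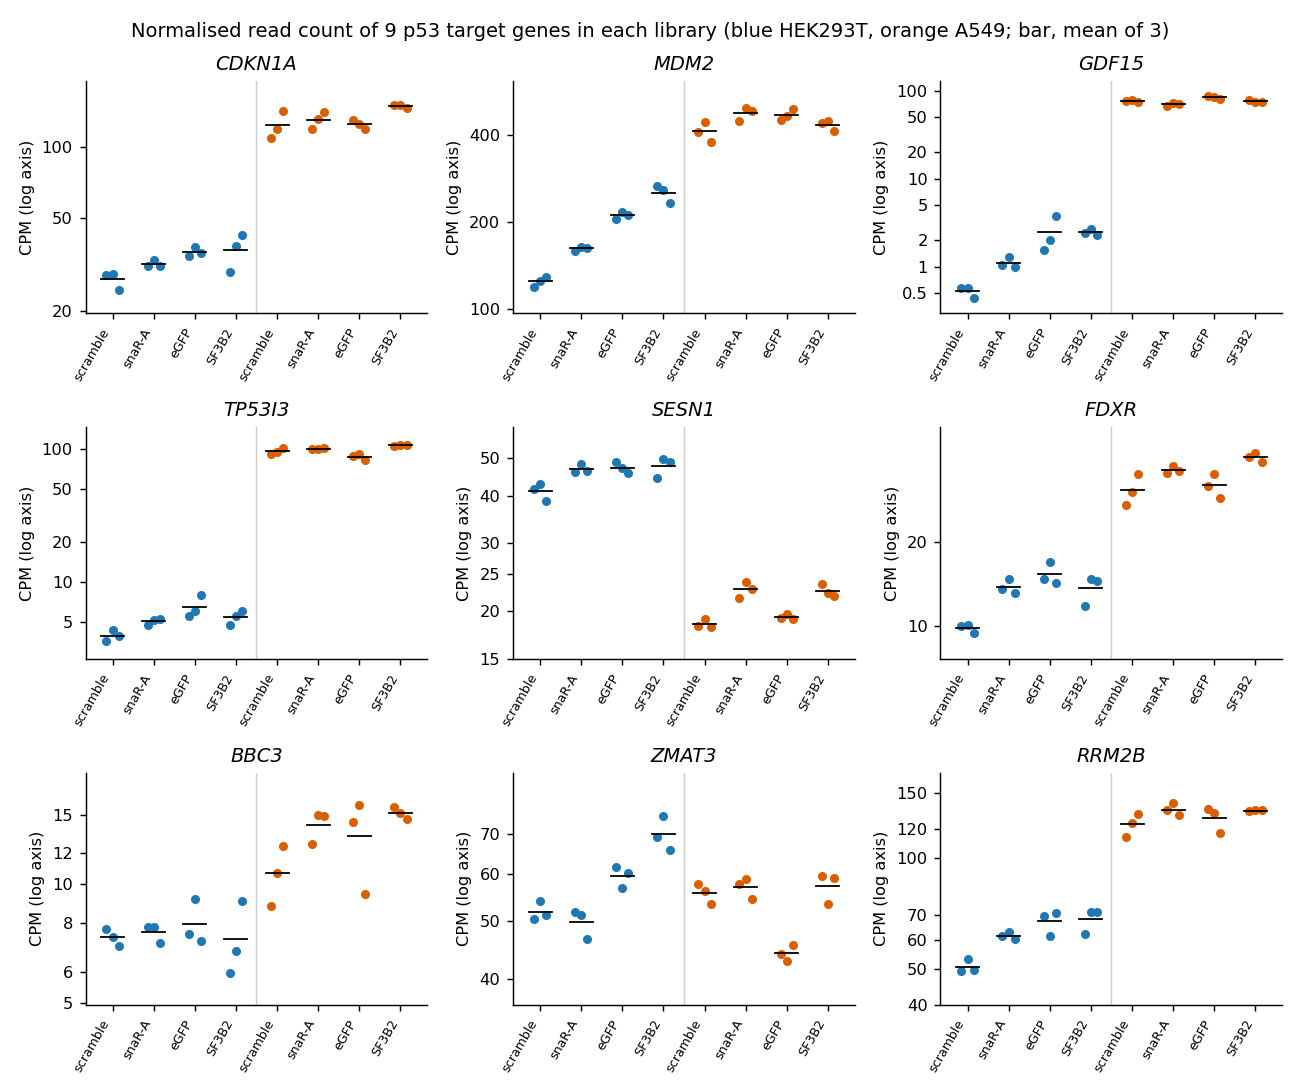
Level of each of the 9 p53 targets in each of the 24 libraries, in CPM on a log axis, by line and plasmid, with 1 point per library. GDF15 and TP53I3 show the widest gap between the lines, SESN1 is the gene with the higher level in HEK293T, and ZMAT3 overlaps between the lines.

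Per kilobase of the merged exons of all annotated transcripts of a gene, a length that can exceed that of the transcripts in use and on which this order depends, the median order in A549 was MDM2 (53.6 CPM per kb), CDKN1A (43.8), TP53I3 (43.0), GDF15 (36.2), RRM2B (24.8), FDXR (9.74), ZMAT3 (4.91), BBC3 (4.57) and SESN1 (2.84). In HEK293T it was MDM2 (22.2), RRM2B (11.5), CDKN1A (10.8), SESN1 (6.36), ZMAT3 (4.92), FDXR (3.86), BBC3 (2.33), TP53I3 (2.25) and GDF15 (0.683). GDF15 and TP53I3 thus stood among the first 4 of the A549 order and at the foot of the HEK293T order, while SESN1 was last in A549. The ratio of the highest to the lowest library of a line was 1.24 to 1.81 in A549. In HEK293T it was 8.56 for GDF15, 2.23 for MDM2 and 2.21 for TP53I3, and 1.29 to 1.80 for the other 6 genes. The highest GDF15 and TP53I3 levels are both those of HEK293T eGFP replicate 3, and without it the ratio was 6.13 for GDF15 and 1.69 for TP53I3.

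The gap between the lines was present with each plasmid taken alone, in 6 libraries at a time, for the 7 genes that were lower and for SESN1. For GDF15 the log2 fold change was -7.10 with scramble, -5.95 with snaR-A, -5.06 with eGFP and -4.95 with SF3B2. For MDM2 it was -1.65, -1.53, -1.12 and -0.78 in the same order. In both genes the gap was widest with scramble. TP53I3 went from -4.54 with scramble to -3.71 with eGFP, CDKN1A from -2.12 with scramble to -1.77 with eGFP, FDXR from -1.58 with scramble to -1.03 with eGFP, and RRM2B from -1.22 with scramble to -0.90 with eGFP. BBC3 was the reverse, at -0.48 with scramble and -1.07 with SF3B2, and SESN1 lay between 1.07 with snaR-A and 1.33 with eGFP. Without HEK293T eGFP replicate 3 the gap with eGFP was -5.56 for GDF15, -3.92 for TP53I3, -1.80 for CDKN1A, -1.16 for MDM2 and -1.01 for FDXR. Without A549 scramble replicate 3 the gap with scramble was -7.13 for GDF15, -1.72 for MDM2 and -0.35 for BBC3. Whether these gaps differ between plasmids is the question of the interaction tests further on.

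**Figure D3:**
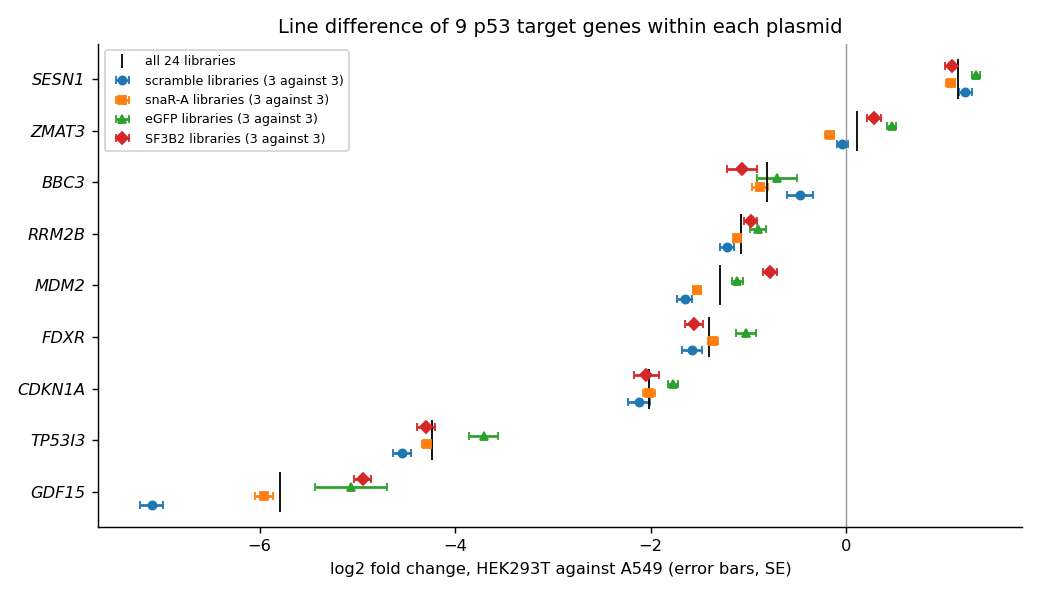
Log2 fold change of HEK293T against A549 for each of the 9 p53 targets, with 1 point for each plasmid from its 6 libraries, error bars of 1 SE and a vertical line for all 24 libraries. GDF15 runs from -7.10 with scramble to -4.95 with SF3B2, and SESN1 and ZMAT3 are the genes with points above 0.

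The wider p53 response showed the same direction on balance, with many exceptions. Of 35 other direct p53 targets in the table, 25 were lower in HEK293T, 9 were higher and 1, AEN, was not called, with 15 lower and 3 higher past a log2 change of 1, and their median was -0.724. By role, 9 of 11 arrest and survival genes were lower and 2 higher (median -1.24), 9 of 14 apoptosis genes were lower and 4 higher (median -0.7), and 7 of 10 repair and other genes were lower and 3 higher (median -0.249). With library totals alone as the scaling the count was 19 lower and 14 higher with a median of -0.258. Under that scaling SPATA18, XPC, DDB2 and CMBL turned from lower to higher, and TRIAP1 lost its call with a positive value.

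Among the genes lower in HEK293T were SFN (log2 fold change -8.00, or -8.55 without HEK293T eGFP replicate 3), which encodes 14-3-3 sigma, PLK2 (-5.32), a stress-responsive polo-like kinase, TRIM22 (-3.83), also an interferon-induced gene, PRDM1 (-3.56), a transcriptional repressor, and RPS27L (-2.72). TNFRSF10A, a TRAIL receptor, had 56.71 to 66 CPM in A549 and 3 to 7 counts in each HEK293T library given scramble, so no fold is given for it. Among the genes higher in HEK293T were CCNG1 (1.37), which encodes cyclin G1, PMAIP1 (1.09), which encodes the BH3-only protein NOXA, FUCA1 (0.98), PIDD1 (0.83) and POLH (0.69), a translesion polymerase. TP53AIP1 was also called higher, but at 1 to 43 counts per library over both lines it lay near the floor. Arrest genes and apoptosis genes are thus found on both sides.

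The regulators of p53 did not follow one direction. On the log2 scale MDM4, the partner of MDM2, differed by 0.11 (adjusted p = 0.119, edgeR), and PPM1D, the phosphatase WIP1 that switches the response off, by -0.0036 (adjusted p = 0.948). CDKN2A, which encodes the MDM2 inhibitor ARF, had 0 to 11 counts in each A549 library and 42.5 to 77 CPM in HEK293T. Of the 14 regulators 6 were higher in HEK293T, among them the checkpoint kinase gene CHEK2 (1.30) and RPL5 (1.2), a ribosomal protein that binds MDM2. The 3 that were lower were USP7 (-0.58), TP53BP1 (-0.36) and HIPK2 (-0.18), and TP53BP1 and HIPK2 turned to higher with library totals alone, where the counts were 13 higher and 1 lower.

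Cell cycle genes that p21 lowers through the DREAM complex were mixed, with 8 of 16 higher in HEK293T, led by MCM2 (1.29), CDC25C (1.21) and CCNA2 (0.91), and 6 lower, led by MKI67 (-0.54), AURKA (-0.54) and TOP2A (-0.48). GDF15 is also known as a gene that ATF4, the factor of the integrated stress response, can raise. Of 15 ATF4 response genes 7 were higher, among them PHGDH (2.35) and INHBE (1.98), and FGF21, which had 2 to 14 counts in each A549 library and is given no fold, and 8 were lower, led by SLC7A11 (-3.45), TRIB3 (-3.12) and VLDLR (-2.26). All 12 interferon response genes were lower in HEK293T, with a median of -6.9. Their summed level was 616.9 to 5103 CPM in A549 and 17.72 to 51.69 CPM in HEK293T, highest in HEK293T eGFP replicate 3, and OAS2 had as few as 3 counts in a HEK293T library, so single folds are not given. The part of ATF4 or interferon signalling in the levels of GDF15 or TRIM22 was not tested.

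**Figure D4:**
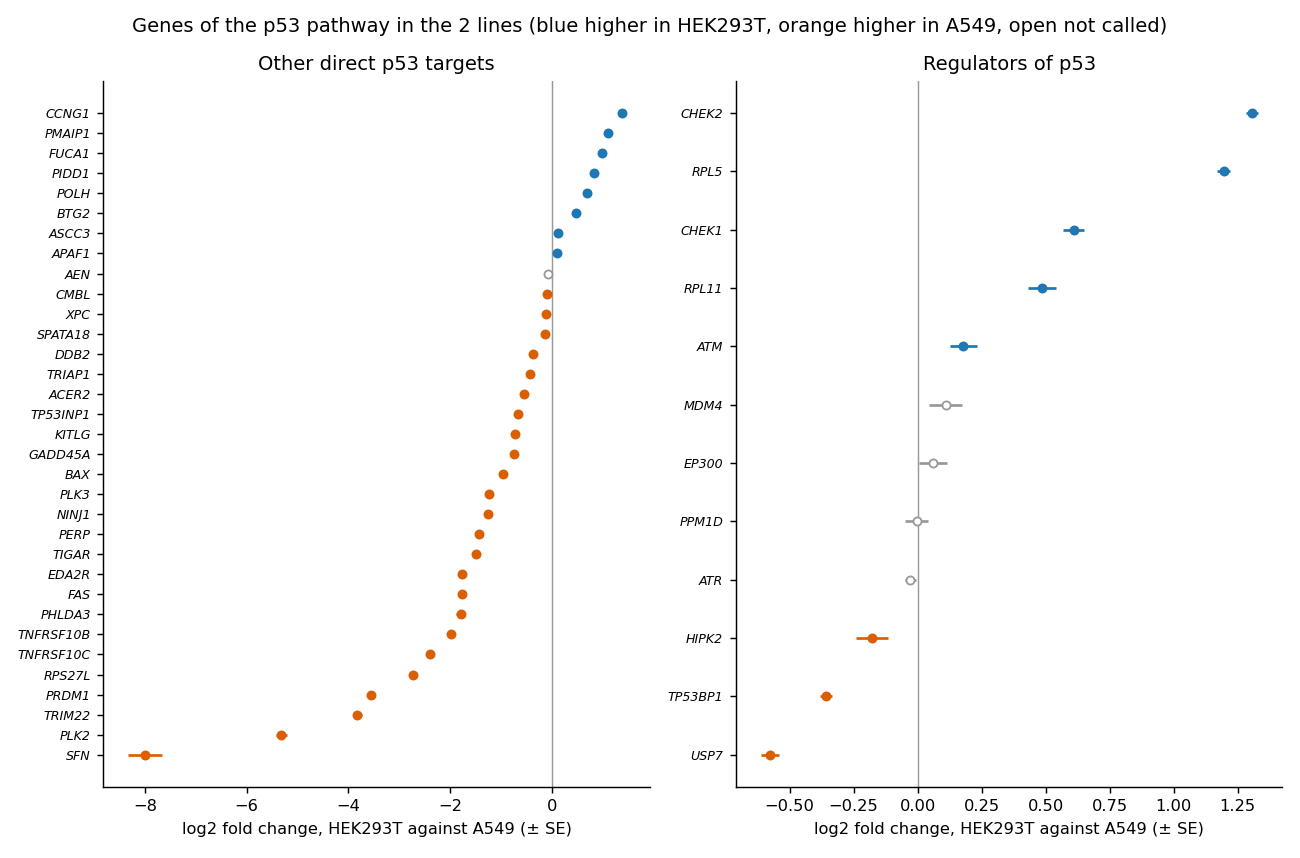
Log2 fold change of HEK293T against A549 for other direct p53 targets (left) and for regulators of p53 (right), with 1 point per gene, error bars of 1 SE and open points for genes that were not called. TNFRSF10A, TP53AIP1 and CDKN2A, which lie near the detection floor in at least 1 group, are not drawn, and SFN at -8.00 and CCNG1 at 1.37 are the ends of the left panel.

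In HEK293T the snaR-A plasmid was set against scramble to ask what an excess of this RNA does, and the p53 targets were higher with snaR-A. At an adjusted p under 0.05, 7 of 9 were higher and 0 lower (edgeR, 6 libraries, 22667 genes), where 17.8% of all genes were higher and 18.5% lower. The median was 0.287 over the 9 genes and -0.00716 over all genes. With library totals as the only scaling the split of all genes was 27% higher and 10% lower, and the count for the 9 genes was again 7 and 0. Leaving out 1 library at a time gave 5 to 7 genes. Of 6 genes often used as references, 2 were higher and 3 lower in this comparison, and their sizes are given at the end.

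The 7 genes ranged from under 1 CPM for GDF15 to over 100 CPM for MDM2 with scramble. GDF15 was at 0.574, 0.574 and 0.443 CPM with scramble and at 1.05, 1.28 and 0.997 CPM with snaR-A. Every snaR-A library lay above every scramble library, and the log2 fold change was 1.07 (SE 0.16, adjusted p = 0.00165, edgeR), the largest of the 9. FDXR was at 10, 10.1 and 9.44 CPM with scramble and at 13.6, 14.7 and 13.1 CPM with snaR-A, a log2 fold change of 0.49 (adjusted p = 0.000934, edgeR). MDM2 was at 120, 126 and 129 CPM with scramble and at 159, 164 and 163 CPM with snaR-A, a log2 fold change of 0.39 (adjusted p = 0.00057, edgeR). All 3 genes were separated without overlap. TP53I3, RRM2B, CDKN1A and SESN1 changed by 0.37, 0.29, 0.23 and 0.20 on the log2 scale (adjusted p 0.016, 0.00136, 0.0213 and 0.00911, edgeR), also without overlap. BBC3 (0.05, adjusted p = 0.637) and ZMAT3 (-0.05, adjusted p = 0.488) did not pass, and their libraries overlapped. For the 7 separated genes an exact two-sided permutation test of the CPM gave p = 0.1, the smallest that 3 against 3 libraries allow. Any gene whose groups do not overlap gets this p, so it adds nothing to the separation. The share of all genes that did not overlap was not counted, so the 7 have no background.

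Other p53 targets were higher in the same comparison: 19 of 34 tested were higher and 3 lower, with a median of 0.25. They included PRDM1 (1.2) and AEN (0.92, adjusted p = 0.000156), a p53-induced nuclease, and TP53AIP1, which went from 1 to 11 counts with scramble to 26 to 43 counts with snaR-A. PMAIP1 (-0.51), PERP (-0.26) and CMBL (-0.14) fell. PPM1D rose by 0.47 (adjusted p = 0.0004) and MDM4 fell by 0.32 on the log2 scale (adjusted p = 0.0178), with 3 of 14 regulators higher and 4 lower. With library totals alone the regulators were 4 higher and 2 lower. The DREAM list was split, 3 higher and 3 lower of 16, and so was the ATF4 list, 6 higher and 5 lower of 15, led by FGF21 (1.39) and INHBE (1.26) on one side and DDIT4 (-0.66) and VLDLR (-0.58) on the other. The part of ATF4 signalling in the GDF15 level was not tested.

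In A549 the same comparison called none of the 9 genes (edgeR quasi-likelihood test, 21662 genes), where 0.00923% of all genes were higher and 0.00923% lower. At an unadjusted p under 0.05 there were 5, edgeR's exactTest called 0 and DESeq2 called 1, SESN1. Here and below, the share of all genes by these other criteria was not counted. The fitted median was 0.132, against 0.000585 over all genes. SESN1 was at 18.2, 19 and 18.1 CPM with scramble and at 21.6, 23.9 and 22.9 CPM with snaR-A, without overlap, a log2 fold change of 0.30 with an adjusted p of 0.77. BBC3 was at 8.81, 10.7 and 12.6 CPM with scramble and at 12.7, 15 and 14.9 CPM with snaR-A, a log2 fold change of 0.41 with an adjusted p of 0.794. In all, 5 of the 9 genes did not overlap between the groups, and the share of all genes that did not overlap was not counted. GDF15, the gene with the largest change in HEK293T, was at 76.8, 78.0 and 74.5 CPM with scramble and at 66.5, 72.8 and 70.4 CPM with snaR-A. None of the 34 other targets was called (10 at an unadjusted p under 0.05, and 0 by both exactTest and DESeq2), and the count for the 9 genes was also 0 without A549 scramble replicate 3. Of 13 regulators tested 0 were called, with 2 at an unadjusted p under 0.05 and 0 by both exactTest and DESeq2.

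The eGFP plasmid against scramble in HEK293T also gave higher levels of most of the 9 genes. Of the 9 genes 8 were higher and 0 lower, where 22.9% of 22613 genes were higher and 25.8% lower, and the median was 0.408 against -0.0103 over all genes. Library totals alone moved the median of all genes by 0.105 and their split to 29.8% higher and 18.6% lower, with 8 and 0 again for the 9 genes. Leaving out HEK293T eGFP replicate 3 also gave 8 and 0, where 21.8% of all genes were higher and 24.7% lower. This comparison and that of snaR-A share the scramble libraries, so their likeness is not independent.

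MDM2 rose from the scramble levels above to 205, 216 and 212 CPM with eGFP, a log2 fold change of 0.76 (SE 0.051, adjusted p = 0.000102, edgeR), and the value was also 0.76 without replicate 3. GDF15 was at 1.57, 2.01 and 3.79 CPM with eGFP, and the highest value was that of replicate 3. Its log2 fold change was 2.21 (SE 0.33, adjusted p = 0.00144, edgeR) with that library and 1.76 (SE 0.186, adjusted p = 0.000391) without it. TP53I3 was at 3.58, 4.32 and 3.92 CPM with scramble and 5.52, 6.07 and 7.93 CPM with eGFP, again highest in replicate 3. Its log2 fold change was 0.72 (SE 0.15, adjusted p = 0.00623, edgeR) with that library and 0.56 (SE 0.111, adjusted p = 0.00495) without it. Both genes were thus called either way, at a lower value without the library. The excess of replicate 3 over the other 2 was 2.65% of the median A549 level for GDF15 and 2.14% for TP53I3, and 2.36% to 5.64% for the 9 A549 markers. For the other 7 genes it was 4.04% for RRM2B, 1.83% for ZMAT3, 0.371% for MDM2, -0.556% for CDKN1A, -4.63% for FDXR, -7.8% for BBC3 and -10.1% for SESN1.

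The smaller changes with eGFP were FDXR 0.64 (adjusted p = 0.000809), RRM2B 0.41 (adjusted p = 0.00188), CDKN1A 0.39 (adjusted p = 0.00296), SESN1 0.20 (adjusted p = 0.0111) and ZMAT3 0.20 (adjusted p = 0.0115) on the log2 scale. CDKN1A was at 28.7, 28.8 and 24.7 CPM with scramble and at 34.6, 37.7 and 35.4 CPM with eGFP. BBC3 was at 7.48, 9.18 and 7.20 CPM with eGFP, overlapping scramble at 7.71, 7.36 and 7, and did not pass (0.11, adjusted p = 0.42). Of 34 other targets 20 were higher and 6 lower with a median of 0.353, and 19 and 6 without replicate 3. PRDM1 rose by 2.34 on the log2 scale, and TP53AIP1 went from 1 to 11 counts to 22 to 41 counts. SFN was called at 2.85 (adjusted p = 0.0466) and not without replicate 3, at 0.61 (adjusted p = 0.107). PMAIP1 (-0.73), CCNG1 (-0.42) and CMBL (-0.41) fell. PPM1D rose by 0.76 (adjusted p = 0.000112) and MDM4 fell by 0.38 on the log2 scale (adjusted p = 0.00748), with 3 of 14 regulators higher and 5 lower, or 6 and 5 with library totals alone. Of 16 DREAM genes 2 were higher and 4 lower, and of 15 ATF4 genes 6 were higher, led by INHBE (2.06) and FGF21 (1.74), and 6 lower, led by DDIT4 (-1.21).

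In A549 the eGFP plasmid against scramble called 1 of the 9 genes, ZMAT3, which fell, where 1.46% of 21578 genes were higher and 0.0324% lower. ZMAT3 was at 57.7, 56.3 and 53.4 CPM with scramble and at 44.2, 42.9 and 45.7 CPM with eGFP. The groups did not overlap, and the log2 fold change was -0.34 (SE 0.055, adjusted p = 0.0307, edgeR), or -0.37 (adjusted p = 0.0262) without A549 scramble replicate 3. The call was lost, with a count of 0, when eGFP replicate 1 or 2 or scramble replicate 1 or 2 was left out. By edgeR's exactTest and by DESeq2 it was likewise the 1 gene called, and 4 genes had an unadjusted p under 0.05. The shares of all genes given above are not for these other criteria. The median was 0.0544, against -0.0104 over all genes. Of 34 other targets 2 were higher, TRIM22 (2.50, adjusted p = 8.13e-05) and PMAIP1 (0.58, adjusted p = 0.014). All 12 interferon response genes rose in the same comparison, with a median of 3.34 and a summed level of 3993 to 5103 CPM with eGFP against 616.9 to 700.1 CPM with scramble, led by XAF1 (4.03), OAS2 (4) and MX2 (3.62). The part of that response in the TRIM22 and PMAIP1 changes was not tested. Of 13 regulators tested 0 were called by edgeR's quasi-likelihood test, exactTest or DESeq2, with 1 at an unadjusted p under 0.05.

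The SF3B2 plasmid was set against its control, eGFP. In HEK293T none of the 9 genes was called (edgeR quasi-likelihood test, 22623 genes), where 0.0398% of all genes were higher and 0.133% lower. At an unadjusted p under 0.05 there were 2, edgeR's exactTest called 0 and DESeq2 called 2, MDM2 and ZMAT3. The share of all genes by these criteria was not counted. MDM2 was at 267, 257 and 232 CPM with SF3B2, each above all 3 eGFP libraries, with a log2 fold change of 0.24 (adjusted p = 0.146), and ZMAT3 at 69.3, 75 and 65.7 CPM against 61.7, 57.0 and 60.3 CPM, with 0.22 (adjusted p = 0.156). The other 7 genes overlapped between the groups, and the share of all genes that overlapped was not counted. The median was -0.000237 against -0.0198 over all genes. HEK293T SF3B2 replicate 3 had 40.86 CPM of A549 markers and the lowest SF3B2 level of its group. Without it 2 genes were called, MDM2 at 0.32 (adjusted p = 0.041) and ZMAT3 at 0.28 (adjusted p = 0.0473). In that fit 4.17% of all genes were higher and 3.92% lower. Without HEK293T eGFP replicate 3, GDF15 was at 0.45 (adjusted p = 0.248). Of 35 other targets 0 were called (12 at an unadjusted p under 0.05, 3 by exactTest and 7 by DESeq2). Library totals alone moved the median of all genes by -0.159 here, and their split was 0.0442% higher and 0.513% lower.

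In A549, SF3B2 against eGFP called 5 of the 9 genes higher and 0 lower, where 3.42% of 21581 genes were higher and 3.6% lower, and the median was 0.241 against 0.00631 over all genes. With library totals alone, 4 genes were higher, where 1.87% of all genes were higher and 3.3% lower. ZMAT3 was at 59.5, 53.5 and 59.1 CPM with SF3B2 and at 44.2, 42.9 and 45.7 CPM with eGFP, a log2 fold change of 0.39 (SE 0.055, adjusted p = 0.00997, edgeR). For ZMAT3 the eGFP group was the one set apart in A549. Its mean was 44.26 CPM, against 57.38 CPM with SF3B2, 57 CPM with snaR-A and 55.78 CPM with scramble, and SF3B2 overlapped scramble. FDXR was at 40.1, 41.5 and 38.7 CPM against 31.7, 35.1 and 28.7 CPM, a log2 fold change of 0.35 (SE 0.068, adjusted p = 0.0305, edgeR). These groups did not overlap. TP53I3 was at 105, 107 and 107 CPM against 87.7, 91.5 and 81.8 CPM, a log2 fold change of 0.30 (SE 0.044, adjusted p = 0.0104, edgeR). CDKN1A was at 152, 152 and 147 CPM against 130, 126 and 120 CPM, a log2 fold change of 0.28 (SE 0.039, adjusted p = 0.00992, edgeR). SESN1 rose by 0.24 (SE 0.040, adjusted p = 0.0177, edgeR). MDM2 (-0.10, adjusted p = 0.28), GDF15 (-0.13, adjusted p = 0.107), BBC3 (0.21, adjusted p = 0.523) and RRM2B (0.08, adjusted p = 0.44) did not pass.

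The count of 5 rested on single libraries of this comparison. It was 0 without A549 SF3B2 replicate 1, 1 without SF3B2 replicate 2 or 3, 2 without eGFP replicate 2, 3 without eGFP replicate 1 and 6 without eGFP replicate 3. Of 34 other targets 8 were higher, led by the antiproliferative gene BTG2 (0.52), PHLDA3 (0.52), a repressor of AKT, and the decoy receptor gene TNFRSF10C (0.41), and 3 were lower, TRIM22 (-1.93), PMAIP1 (-0.37) and PRDM1 (-0.29), with a median of 0.116. PPM1D rose by 0.32 (adjusted p = 0.0451) and MDM4 fell by 0.32 on the log2 scale (adjusted p = 0.0345). All 12 interferon response genes were lower with SF3B2, with a median of -2.21, led by XAF1 (-2.96), OAS2 (-2.65) and MX2 (-2.59), and their part in the TRIM22 and PMAIP1 changes was not tested. MCM5 (0.25) was called higher among 16 DREAM genes.

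Set against scramble, SF3B2 in HEK293T gave 8 of 9 genes higher and 0 lower, where 16.8% of 22593 genes were higher and 17.5% lower. The median was 0.437 against -0.00647 over all genes. GDF15, at 2.40, 2.72 and 2.29 CPM with SF3B2, had a log2 fold change of 2.22 (SE 0.16, adjusted p = 0.000583, edgeR), and MDM2 one of 1.02 (SE 0.073, adjusted p = 0.000583, edgeR). ZMAT3 and RRM2B both rose by 0.44 (adjusted p 0.00329 and 0.00431), TP53I3 by 0.47 (adjusted p = 0.0243), FDXR by 0.48 (adjusted p = 0.0102) and SESN1 by 0.22 (adjusted p = 0.0386), and CDKN1A had an adjusted p of 0.0424. BBC3 did not pass (-0.01, adjusted p = 0.962). The count was 5 with library totals alone, where 12.6% of all genes were higher and 19.2% lower. It was also 5 without HEK293T scramble replicate 1, scramble replicate 3 or SF3B2 replicate 2, and 6 without SF3B2 replicate 3. Of 34 other targets 21 were higher and 3 lower with a median of 0.396, PRDM1 (1.25) and TRIM22 (0.94) among the first and CCNG1 (-0.45), PMAIP1 (-0.44) and CMBL (-0.31) the second, and TP53AIP1 had 19 to 28 counts. PPM1D rose by 0.90 (adjusted p = 0.00161).

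In A549, SF3B2 against scramble called 0 of the 9 genes (edgeR quasi-likelihood test, 21461 genes), where 0.214% of all genes were higher and 0.0186% lower. At an unadjusted p under 0.05 there were 6, and exactTest and DESeq2 each called 3, SESN1, FDXR and BBC3. The share of all genes by these criteria was not counted, so these counts have no background. Without A549 scramble replicate 3, the library that carries the SF3B2 transcript, 6 were higher and 0 lower, where 10.9% of all genes were higher and 11% lower. These were BBC3 at 0.63 (adjusted p = 0.00618), FDXR at 0.48 (adjusted p = 0.0044), CDKN1A at 0.38 (adjusted p = 0.00453), SESN1 at 0.27 (adjusted p = 0.00969), TP53I3 at 0.19 (adjusted p = 0.0108) and RRM2B at 0.17 (adjusted p = 0.0314). BBC3 was at 15.7, 15.1 and 14.7 CPM with SF3B2 and at 8.81 and 10.7 CPM in the 2 remaining scramble libraries. For this comparison the left-out library therefore decides the count. Of 34 other targets 1 was called, BTG2 (0.43, adjusted p = 0.0345), with 15 at an unadjusted p under 0.05, 4 by exactTest and 5 by DESeq2, and 13 higher and 3 lower without that library. Of 12 interferon genes 8 were higher, led by OAS2 (1.35), IFI6 (1.2) and IFIT2 (1.2).

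**Figure D5:**
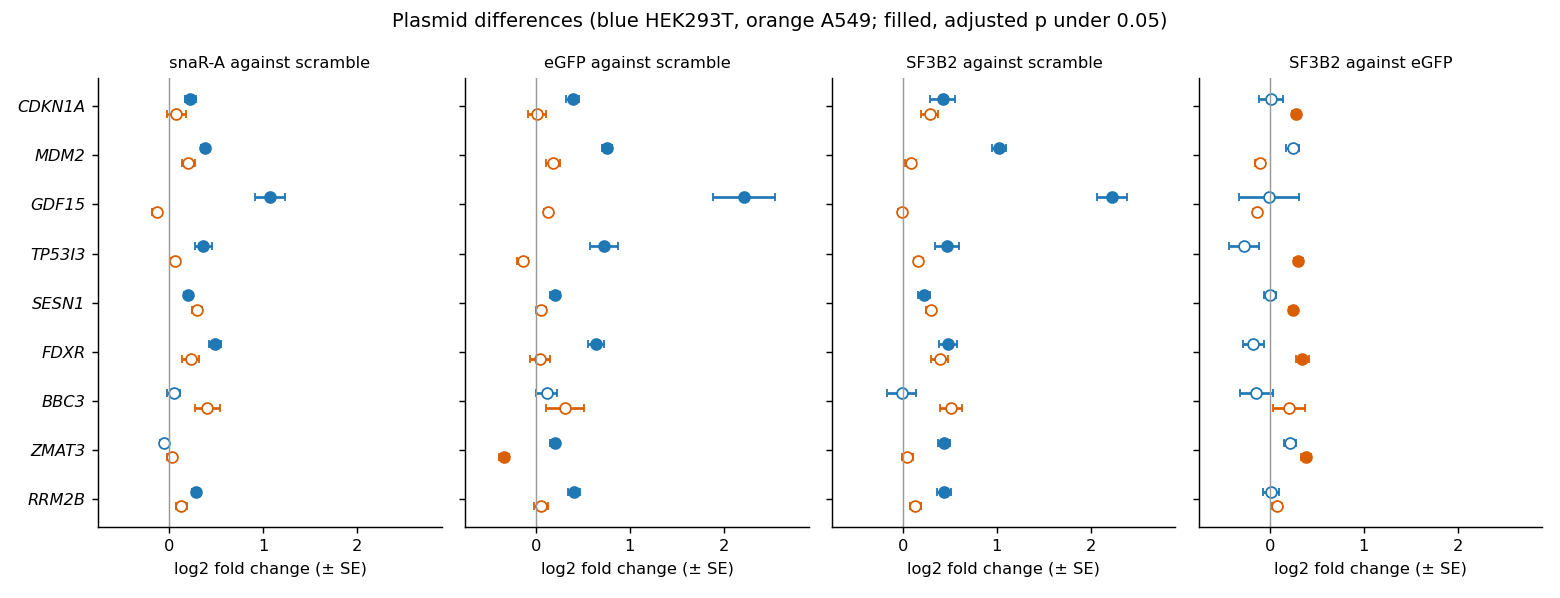
Log2 fold change of each of the 9 p53 targets in the plasmid comparisons of each line, with error bars of 1 SE. Blue points are HEK293T and orange points A549, and filled points passed an adjusted p of 0.05. Against scramble 7, 8 and 8 of the 9 genes are filled in HEK293T and 0, 1 and 0 in A549, while against eGFP 0 are filled in HEK293T and 5 in A549.

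Ordered by mean level, scramble was the lowest HEK293T group and did not overlap its neighbour for 7 of the 9 genes, CDKN1A, MDM2, GDF15, TP53I3, SESN1, FDXR and RRM2B. For MDM2 the whole HEK293T order was separated, from SF3B2 at a mean of 252.1 CPM through eGFP at 211 CPM and snaR-A at 162.2 CPM to scramble at 124.8 CPM. For BBC3 every pair of neighbours in the order of the 8 groups overlapped. These orders are described without a test. The share of all genes with scramble set apart in this way was not counted, so the 7 of 9 has no background. All 3 comparisons with scramble use the same 3 scramble libraries.

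Whether a plasmid's effect differed between the lines was tested directly by an interaction term, the effect in HEK293T minus the effect in A549, in 12 libraries each. For snaR-A against scramble it passed for 2 of 9 genes, GDF15 at 1.21 (adjusted p = 0.000849) and TP53I3 at 0.32 (adjusted p = 0.0487), where 11.4% of all genes passed. Without A549 scramble replicate 3, GDF15 was at 1.2 (adjusted p = 0.00104), TP53I3 no longer passed at 0.25 (adjusted p = 0.0786), and BBC3 passed at -0.50 (adjusted p = 0.0305). The count was 2 without that library or HEK293T scramble replicate 2, and 1 without any 1 of the other 10 libraries. CDKN1A, MDM2, SESN1, FDXR and RRM2B, called in HEK293T and not in A549, did not pass the test of the difference.

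For eGFP against scramble 5 of 9 genes passed, where 26.4% of all genes did. They were GDF15 at 2.02 (adjusted p = 0.00288), TP53I3 at 0.80 (adjusted p = 0.0078), FDXR at 0.53 (adjusted p = 0.0209), MDM2 at 0.51 (adjusted p = 0.00309) and ZMAT3 at 0.47 (adjusted p = 0.00155). Without HEK293T eGFP replicate 3 the count was again 5, with GDF15 at 1.53 (adjusted p = 9e-05) and TP53I3 at 0.62 (adjusted p = 0.00316). ZMAT3 rose in HEK293T and fell in A549, and the other 4 rose in HEK293T and were not called in A549.

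For SF3B2 against eGFP 1 gene passed, MDM2 at 0.37 (adjusted p = 0.0391), where 6.1% of all genes did. Without HEK293T eGFP replicate 3 there were 2, MDM2 at 0.38 (adjusted p = 0.0476) and GDF15 at 0.61 (adjusted p = 0.0297), and without any 1 of 10 other libraries 0. Without HEK293T SF3B2 replicate 3 there were 3, MDM2 at 0.43 (adjusted p = 0.00745) and, in the other direction, TP53I3 at -0.63 (adjusted p = 0.0362) and FDXR at -0.53 (adjusted p = 0.0431). With all libraries CDKN1A, TP53I3, SESN1, FDXR and ZMAT3, called in A549 and not in HEK293T, did not pass this test. For SF3B2 against scramble 4 genes passed, where 24.5% of all genes did. They were GDF15 at 2.22 (adjusted p = 1.91e-05), MDM2 at 0.94 (adjusted p = 0.000317), ZMAT3 at 0.39 (adjusted p = 0.00901) and RRM2B at 0.31 (adjusted p = 0.0336). Without A549 scramble replicate 3, RRM2B no longer passed (adjusted p = 0.062) and BBC3 passed at -0.66 (adjusted p = 0.0383).

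Over the 4 interactions the medians of the 9 genes were 0.168, 0.475, -0.215 and 0.307, against 0.0151, -0.034, -0.0242 and 0.0068 over all genes. The 35 other targets gave 10 positive and 1 negative for snaR-A, 13 and 5 for eGFP, 2 and 5 for SF3B2 against eGFP, and 11 and 5 for SF3B2 against scramble. MDM2 and GDF15 were the members that passed in 3 of the 4, while CDKN1A, SESN1 and BBC3 passed in none with all libraries included.

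The genes whose pattern was most like CDKN1A and MDM2 were found by Pearson correlation over the 24 libraries after the mean of each line was subtracted, among 11103 genes expressed in both lines. For CDKN1A they were TUSC2 (0.894), GNA11 (0.892), PHLDA3 (0.885), TIGAR (0.882) and SNX15 (0.872), of which PHLDA3 and TIGAR are on the list of other direct p53 targets. For MDM2 they were WAPL (0.945), TGS1 (0.943), UTP25 (0.943), SENP6 (0.941) and SDAD1 (0.94), none of them on a p53 list. Within A549 alone the correlations of those 5 genes with MDM2 were 0.33, 0.655, 0.191, 0.633 and 0.691 over 12 libraries, and within HEK293T 0.958 to 0.986. The libraries of a line share plasmid groups and sequencing depth, so these values describe likeness only.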

How the data were processed

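Stranded poly(A) RNA-seq libraries were made after rRNA depletion and sequenced for 121 cycles. Per the study's methods and the submitters' processing notes, the authors trimmed reads with Trim Galore and quantified them with Salmon against the human transcriptome (hg38), and the deposited table holds estimated counts per Ensembl gene, not normalized. The transcriptome release and the step from transcripts to genes are not given in the sources used here. Estimated counts, 51% of which were not whole numbers, were rounded. The table pairs no IDs with names, and 54903 of 60236 IDs were given a symbol from a table of Ensembl gene names, with positions from GENCODE on GRCh38.

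Groups came from the sample titles. Genes were filtered with filterByExpr, libraries scaled with TMM, and each comparison fitted in the libraries of its groups with edgeR's quasi-likelihood F-test (edgeR 4.0.16, limma 3.58.1, R 4.3.3) and Benjamini-Hochberg adjustment over all genes tested. Calls are at an adjusted p under 0.05. The authors' own tests also used edgeR. All adjusted p-values printed are from this test unless exactTest or DESeq2 (1.42.0) is named. The 9 genes and every list were chosen with earlier results of these data known. Besides the 9 genes, the text names MDM4, PPM1D and CDKN2A, of the other direct targets up to 6 called genes in each direction with the largest change between the lines and up to 3 in each plasmid comparison, and up to 3 in each direction of the remaining lists. Genes most like CDKN1A or MDM2 are the 5 with the highest correlation each. Genes named because they fall outside this rule, such as those that a scaling turned, were picked with their values in view. The list of 36 other direct targets has 35 in this table, and the gene missing from it was not analysed here. Some genes of the lists are counted but not reported here by name. The scripts were tested on simulated data. Alternatives were RLE scaling, library totals, 2 other filters, exactTest, DESeq2, all 12 libraries of a line, a replicate block and leaving out each library, and leaving out the libraries that stand apart was chosen after seeing the data. Samples with the same replicate number showed no clear common deviation and were not treated as pairs.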

Additional observations from a re-analysis of the deposited data

Results flagged for a closer look

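The results listed here are the 9 genes' plasmid effects that differed between HEK293T and A549 by the interaction test of edgeR, given as the effect in HEK293T minus the effect in A549 on the log2 scale. Groups of 3 libraries are too small for a test of single outlying libraries. For snaR-A against scramble they were GDF15 at 1.21 (adjusted p = 0.000849, edgeR) and TP53I3 at 0.32 (adjusted p = 0.0487, edgeR). For eGFP against scramble they were MDM2 at 0.51 (adjusted p = 0.00309, edgeR), GDF15 at 2.02 (adjusted p = 0.00288, edgeR), TP53I3 at 0.80 (adjusted p = 0.0078, edgeR), FDXR at 0.53 (adjusted p = 0.0209, edgeR) and ZMAT3 at 0.47 (adjusted p = 0.00155, edgeR). Without HEK293T eGFP replicate 3, GDF15 was at 1.53 and TP53I3 at 0.62 in that test. For SF3B2 against eGFP it was MDM2 at 0.37 (adjusted p = 0.0391, edgeR). For SF3B2 against scramble they were MDM2 at 0.94 (adjusted p = 0.000317, edgeR), GDF15 at 2.22 (adjusted p = 1.91e-05, edgeR), ZMAT3 at 0.39 (adjusted p = 0.00901, edgeR) and RRM2B at 0.31 (adjusted p = 0.0336, edgeR). All 12 are positive. The comparisons share their scramble or eGFP libraries, so they are not independent of each other.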

How the results depend on the processing

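For single genes, 836 of 882 values under alternatives other than leaving out a library kept their direction and their side of the threshold, 23 gained a call, 21 lost one and 2 reversed, both of them ZMAT3 between the lines, at -0.17 with the snaR-A libraries alone and -0.042 with the scramble libraries alone. Leaving out 1 library gave 991 of 1080 on the same side, 19 gained, 70 lost and 0 reversed. Of the 9 genes, DESeq2 called 1 for snaR-A against scramble in A549, 2 for SF3B2 against eGFP in HEK293T, 3 for SF3B2 against scramble in A549 and 3 in the interaction of SF3B2 against eGFP, where the quasi-likelihood test called 0, 0, 0 and 1. The exactTest called 3 for SF3B2 against scramble in A549. With all 12 libraries of a line the count was 2 for SF3B2 against eGFP in HEK293T and 1 for SF3B2 against scramble in A549. With library totals alone it was 5 for SF3B2 against scramble in HEK293T, 1 in the snaR-A interaction and 0 in the SF3B2 against eGFP interaction. The snaR-A interaction count was 1 with RLE scaling and 1 with no filter, and that of SF3B2 against eGFP was 0 with no filter and 3 with at least 10 counts in every library. The cause of these shifts was not tested, and the share of all genes called by exactTest or DESeq2 was not counted.

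Without 1 library at a time, the count ranged from 0 to 1 for eGFP against scramble in A549, 0 to 2 for SF3B2 against eGFP in HEK293T, 0 to 6 for SF3B2 against eGFP in A549, 5 to 8 for SF3B2 against scramble in HEK293T, 0 to 6 for SF3B2 against scramble in A549, 1 to 2 in the snaR-A interaction and 0 to 3 in the SF3B2 against eGFP interaction. It was 9 throughout between the lines, 5 to 7 for snaR-A and 7 to 8 for eGFP against scramble in HEK293T, 0 throughout for snaR-A in A549, 5 to 7 in the eGFP interaction and 3 to 5 in the SF3B2 against scramble interaction. A left-out library also leaves fewer samples.

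With the replicate number as a block the count was 0 for eGFP against scramble in A549 and 0 in the SF3B2 against eGFP interaction, 4 for SF3B2 against eGFP in A549 and 6 for SF3B2 against scramble in HEK293T, and within 1 of the unblocked count elsewhere. Over 36 pairs, samples that share a number had correlations of their deviations from -0.131 to 0.102 (median -0.00493). In 0 of 12 comparisons was every pair over 0.1, so the samples were not treated as pairs. Deviations from a mean of 3 libraries cannot exclude a pairing. GDF15 had the lowest counts of the 9 genes, 108 or more in every library, while 3 counts correspond to 0.0115 to 0.0154 CPM and TNFRSF10A, TP53AIP1, CDKN2A, FGF21 and OAS2 are among the genes that lay near that level in some groups.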

Other observations

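Among themselves the 9 genes moved together in HEK293T more than in A549, given here as a description over 12 libraries of a line that share plasmid groups. Over the 36 pairs of genes, Pearson correlations of the log2 level had a median of 0.722 in HEK293T, with 34 above 0, and of 0.37 in A549, with 25 above 0. In HEK293T, MDM2 and GDF15 had 0.926 and SESN1 and FDXR 0.899, and all 28 pairs without BBC3 lay at 0.359 or more. In A549, BBC3 and RRM2B had 0.901 and CDKN1A and FDXR 0.875, while GDF15 and ZMAT3 had -0.717 and CDKN1A and MDM2 -0.146. The difference between the lines was not tested, and HEK293T eGFP replicate 3 is included. Correlations of other gene pairs were not taken as a background, so this is not shown to be a trait of these 9 genes. For snaR-A against scramble, 17.8% of all genes were higher and 18.5% lower in HEK293T, and 0.00923% each in A549.

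Genes often used as references also differed between the lines: of 6, HPRT1 (1.09), TBP (1.16) and GUSB (1.18) were higher in HEK293T and ACTB (-1.61), GAPDH (-1.33) and PPIA (-0.59) lower on the log2 scale. In HEK293T, snaR-A against scramble changed 5 of the 6, TBP by 0.35, GUSB by 0.31, GAPDH by -0.37, HPRT1 by -0.31 and PPIA by -0.25. These are of the size of the changes of TP53I3, RRM2B, CDKN1A and SESN1 in the same comparison, and the largest is close to that of MDM2. GDF15 and FDXR changed by more.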
